A study of Sus scrofa with 20 samples.

Results

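Hippocampus RNA of 20 German Landrace pigs, adult per their labels, was hybridised to porcine Snowball arrays, with 1 array per animal, and the level of transthyretin (TTR) split the arrays into a TTR-high class of 9, a TTR-low class of 7 and 4 arrays between that were left out of the comparison. The members were chosen by TTR itself: TTR-high arrays had a TTR value at or above 11 log2 and TTR-low arrays a value below 10 log2, so TTR was described and not tested. The animals belonged to a study of coping behavior with 10 high-reactive (HR) and 10 low-reactive (LR) pigs, classes set by early-life backtests together with haplotypes at a locus on chromosome 12. The TTR-high class held 6 HR and 3 LR arrays, the TTR-low class 3 HR and 4 LR arrays, and 1 HR and 3 LR arrays lay between. No animal was treated, and the hippocampus was located with a brain atlas and excised, per the study's methods. Values are log2 signals on the scale of the robust multichip average (RMA), on which the median probe set had a mean of 5.53.

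The choroid plexus is a frond of epithelium and vessels that hangs into the brain ventricles and secretes cerebrospinal fluid. A part of it lies along the hippocampus at the choroid fissure. Its epithelial cells make and release TTR, the carrier of thyroid hormone and retinol, move ions, water and vitamins between blood and fluid, and are sealed to each other by tight junctions. In a bulk sample, fewer cells of a type and less RNA per cell cannot be told apart.

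TTR, which lies on chromosome 6 at 115496338 to 115503974 in the Sscrofa 11.1 annotation, spanned a wide range. Its lowest, median and highest values were 11.15, 11.42 and 12.08 log2 in TTR-high arrays, against 6.88, 8.08 and 9.44 log2 in TTR-low arrays. The arrays between lay at 10.33 to 10.71 log2. Just inside the upper limit stood LR replicate 9 at 11.15 log2, just outside it LR replicate 2 at 10.71 log2, and the highest TTR-low array was LR replicate 3 at 9.44 log2. All 6 HR arrays of the TTR-high class lay above its 3 LR arrays, with means of 11.73 and 11.23 log2. TTR was read by 4 probe sets. The other bright ones followed the chosen one across the 20 arrays with r = 0.996 and 0.991, values that share their arrays, and the dim one, with a mean of 1.88 log2, with r = 0.381. Set by coping pattern, a contrast the choice did not use, TTR averaged 10.33 ± 2.08 log2 in HR and 9.89 ± 1.41 log2 in LR arrays (SD, n = 10 each), and the difference of 0.44 did not pass a two-sided permutation test (p = 0.578).

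**Figure D1:**
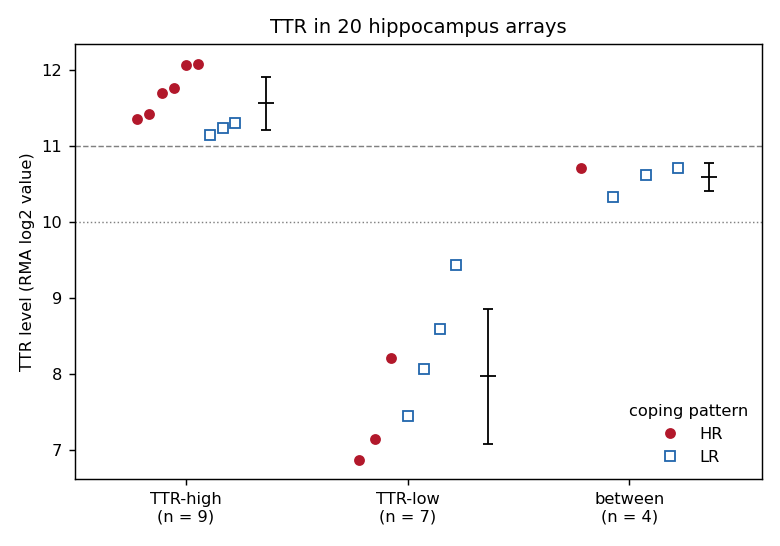
TTR level in log2 units on the vertical axis for each array, with TTR-high, TTR-low and between arrays side by side, filled circles for HR and open squares for LR. Black bars give the mean and SD, and the dashed and dotted lines the limits at 11 and 10 log2. TTR-low arrays spread from 6.88 to 9.44 log2, wider than the TTR-high arrays at 11.15 to 12.08 log2.

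The tissue label was not tested. PROX1 and NEUROD6, 1 member each of the granule and pyramidal cell lists, were picked outside the rule for named genes given below. PROX1, a transcription factor of dentate granule cells, averaged 8.37 log2 in TTR-high and 8.45 log2 in TTR-low arrays. NEUROD6, a transcription factor of pyramidal cells, averaged 9.96 log2 in TTR-high and 10.13 log2 in TTR-low arrays. The median difference was -0.01 log2 over the 10 measured granule cell genes and 0.01 log2 over the 11 measured pyramidal cell genes. The array medians lay between 5.48 and 5.57 log2, and any pair of arrays correlated at 0.949 to 0.991. The number in the sample title, whose meaning is not given, averaged 2813 in TTR-high and 2744 in TTR-low arrays (p = 0.334 in a two-sided exact permutation test, 0.410 after adjustment for the 4 measures compared). The first principal component, with 48.1% of the variance, averaged 3.24 in TTR-high and -16.98 in TTR-low arrays (exact permutation p = 0.137, adjusted p = 0.274). With that component as a covariate KCNJ13, described next, remained the 1 gene called.

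The question put to the other genes was which of them were higher or lower in the arrays with more TTR. KCNJ13 rose in TTR-high arrays, and it was the 1 gene of 13754 that passed the adjusted threshold, 0.00727% of those tested (limma, coping pattern as covariate, Benjamini-Hochberg at 0.05). At an unadjusted p under 0.05 stood 615 genes in the direction higher in TTR-high arrays (4.47% of genes) and 438 in the direction lower (3.18%). The median difference of all genes was 0.04 log2, and 58.8% of them had a positive difference. These unadjusted counts, 1053 in all, rested on few arrays. The total was 2475 without LR replicate 9, 2456 without LR replicate 3, 1643 without LR replicate 8, 696 without HR replicate 2, 605 without HR replicate 6 and 459 without HR replicate 5, and it was 364 with blood cell markers as a covariate.

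KCNJ13 encodes Kir7.1, an inwardly rectifying potassium channel of the apical membrane of choroid plexus epithelium, and lies on chromosome 15 at 133239843 to 133249630. Its lowest, median and highest values were 6.24, 6.65 and 7.16 log2 in TTR-high arrays, against 4.75, 5.24 and 5.76 log2 in TTR-low arrays. Every TTR-high array stood above every TTR-low array. The difference was 1.44 ± 0.15 log2 (SE, limma adjusted p = 0.000186), a 2.71-fold change. It was 1.13 log2 within HR arrays and 1.80 log2 within LR arrays, and these did not differ past the threshold (interaction -0.67 ± 0.25 log2, limma adjusted p = 0.0994). The 4 arrays between averaged 5.92 log2, from 5.56 to 6.13 log2, so that the lowest of them lay within the TTR-low range. A dimmer KCNJ13 probe set with a mean of 3.49 log2 differed by 1.24 ± 0.29 log2 (unadjusted p = 0.000533). The exact Wilcoxon test could not call the gene, since complete separation of 9 from 7 arrays gave an adjusted p of 0.401 over all genes.

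Of the other markers neither measured one passed. KL, which encodes klotho, a membrane protein released into cerebrospinal fluid, had lowest, median and highest values of 7.10, 7.29 and 7.48 log2 in TTR-high arrays, against 6.50, 7.10 and 7.36 log2 in TTR-low arrays. Of the TTR-high arrays 2 lay above the highest TTR-low array, and the difference of 0.19 ± 0.11 log2 did not pass (limma adjusted p = 0.558). FOLR1, the folate receptor that carries folate across the epithelium, had values of 6.87, 7.44 and 7.86 log2 in TTR-high arrays, against 6.98, 7.32 and 7.79 log2 in TTR-low arrays, in the same order. The FOLR1 ranges overlapped almost in full, with a difference of 0.08 ± 0.13 log2 (limma adjusted p = 0.778), which was 0.33 log2 within HR and -0.22 log2 within LR arrays. CLIC6, a chloride channel protein, is the symbol of no probe set in the annotation used here. Besides TTR, which set the classes, 1 of the 3 measured markers passed, KCNJ13, and the classes are therefore named here by TTR and not by choroid plexus.

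**Figure D2:**
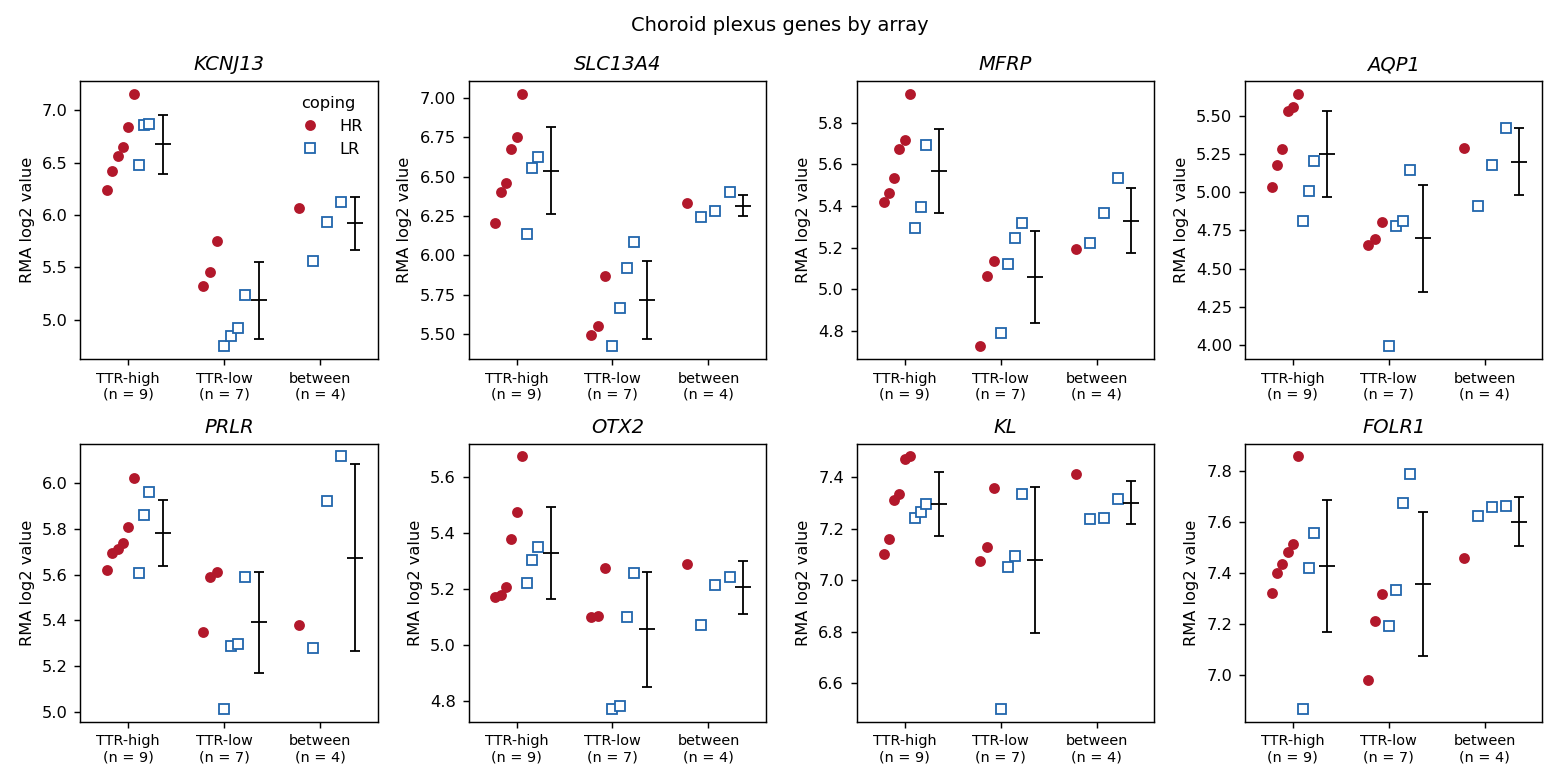
Level in log2 units (vertical axes) of 8 choroid plexus genes in each array, by TTR class, with filled circles for HR, open squares for LR and black bars for the mean and SD. KCNJ13 and SLC13A4 separate TTR-high from TTR-low arrays without overlap, MFRP, AQP1, PRLR and OTX2 overlap in part, and KL and FOLR1 overlap widely.

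Lists of choroid plexus genes held 133 genes, of which 111 could be measured besides TTR. Of these 111, 1 was called, 18 had an unadjusted p under 0.05 in the direction higher in TTR-high arrays (16.2%, against 4.47% of all genes) and 1 in the direction lower. A positive difference was found for 75 and a negative one for 36, with a median of 0.05 log2 against 0.04 log2 over all genes. Without LR replicate 9 the higher direction held 20 of the 111, against 9.34% of all genes. The share of 16.2% was 22.5% against 8.87% without LR replicate 3, 11.7% against 2.24% without HR replicate 5 and 9.91% against 1.80% with the blood cell markers as a covariate. As a ratio, the shares lay closer together within a coping pattern than in the main fit. They were 31.5% against 20.7% in HR arrays alone and 8.11% against 4.01% in LR arrays alone. With TTR as a number over all 20 arrays they were 26.1% against 14.6%.

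The listed gene with the next smallest p was a carrier. SLC13A4 encodes a sulfate transporter of choroid plexus epithelium and lies on chromosome 18 at 13593735 to 13641649. It had 6.13, 6.56 and 7.03 log2 (lowest, median, highest) in TTR-high arrays, against 5.42, 5.67 and 6.08 log2 in TTR-low arrays. The SLC13A4 classes did not overlap, but the difference of 0.82 ± 0.13 log2 stopped just short of the threshold (limma adjusted p = 0.0516), and a second SLC13A4 probe set differed by 0.31 ± 0.14 log2. Depending on the fit the adjusted p ran from 0.0189 to 0.755. SLC2A12, a sugar transporter, had 6.16, 6.50 and 6.76 log2 in TTR-high arrays, against 5.65, 6.20 and 6.41 log2 in TTR-low arrays. The SLC2A12 difference was 0.43 ± 0.11 log2 (limma adjusted p = 0.558), and its 2 other probe sets differed by -0.34 and 0.00 log2, so the probe sets disagreed. SLC46A1, the proton-coupled folate transporter, differed by 0.21 ± 0.07 log2, and SLC39A4, a zinc importer, by 0.28 ± 0.11 log2, and neither passed. In this list of 29 genes 25 were measured, 5 had an unadjusted p under 0.05 higher and 1 lower, with a median of 0.05 log2. The lower one was SLCO1C1, a thyroid hormone transporter that brain endothelium also makes, at 7.73 ± 0.42 log2 in TTR-high and 8.12 ± 0.34 log2 in TTR-low arrays, and it was named after its value was seen. Its difference of -0.39 ± 0.19 log2 (limma adjusted p = 0.558) was -0.73 log2 within HR and 0.00 log2 within LR arrays.

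Ion and water transport was represented by 14 measured genes of 22. AQP1, the water channel of the apical membrane, had 4.81, 5.21 and 5.65 log2 in TTR-high arrays, against 3.99, 4.78 and 5.15 log2 in TTR-low arrays, and 6 of 9 TTR-high arrays stood above the highest TTR-low array. The AQP1 difference was 0.50 ± 0.14 log2 and did not pass (limma adjusted p = 0.558). CA14, a membrane carbonic anhydrase, differed by 0.23 ± 0.12 log2. With KCNJ13 and AQP1 as the genes with an unadjusted p under 0.05, 7 members had a positive and 7 a negative difference.

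Among receptors and surface proteins, MFRP and PRLR led. MFRP, a frizzled-related membrane protein known from the retinal pigment epithelium, had 5.29, 5.53 and 5.94 log2 in TTR-high arrays, against 4.73, 5.12 and 5.32 log2 in TTR-low arrays. PRLR, the prolactin receptor, had 5.61, 5.74 and 6.02 log2 in TTR-high arrays, against 5.01, 5.35 and 5.61 log2 in TTR-low arrays. For each of MFRP and PRLR 8 of 9 TTR-high arrays lay above the highest TTR-low array. Neither difference passed, at 0.51 ± 0.11 log2 for MFRP (limma adjusted p = 0.456) and 0.37 ± 0.10 log2 for PRLR (limma adjusted p = 0.558), and 5 further PRLR probe sets, all dim, differed by 0.09 to 0.35 log2. CDH3, a cadherin, differed by 0.18 ± 0.09 log2. The list had 14 positive and 4 negative differences among 18 measured genes.

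Secreted proteins differed by small amounts. BMP6, a bone morphogenetic protein, averaged 6.51 ± 0.08 log2 in TTR-high and 6.25 ± 0.19 log2 in TTR-low arrays, and 8 of 9 TTR-high arrays stood above every TTR-low array. IGF2, the imprinted growth factor that choroid plexus and meninges make, was the bright gene among these and averaged 11.32 ± 0.12 log2 in TTR-high and 11.13 ± 0.13 log2 in TTR-low arrays. The differences were 0.29 ± 0.08 log2 for BMP6 and 0.21 ± 0.08 log2 for IGF2, and neither passed (limma adjusted p = 0.558 each). IGFBP2, which binds insulin-like growth factors, and COL8A2, a collagen, each differed by 0.21 ± 0.09 log2, while a second COL8A2 probe set differed by -0.12 log2. EFEMP1, an extracellular matrix protein, stood at the other end of the list with -0.59 ± 0.28 log2 and was named after its value was seen. Its difference was -1.17 log2 within HR and 0.08 log2 within LR arrays.

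OTX2, which choroid plexus epithelium needs to form, had 5.17, 5.31 and 5.67 log2 in TTR-high arrays, against 4.77, 5.10 and 5.28 log2 in TTR-low arrays. The OTX2 difference was 0.25 ± 0.10 log2. NR1H4, the bile acid receptor, differed by 0.34 ± 0.13 log2, and LMX1A and LMX1B, homeobox factors of the dorsal midline from which the plexus grows, by 0.21 ± 0.09 and 0.21 ± 0.08 log2. Their second probe sets differed by 0.00 log2 for LMX1A and -0.20 log2 for LMX1B, so the probe sets disagreed. Of 12 measured transcription factors 4 had an unadjusted p under 0.05 and 9 a positive difference, and none passed the adjusted threshold in limma. KRT8, a keratin of simple epithelia, differed by 0.26 ± 0.10 log2, and the tight junction genes CLDN1 and CLDN2 by 0.18 ± 0.10 and 0.22 ± 0.14 log2. TJP1, a junction scaffold that vessels share, differed by -0.35 ± 0.17 log2. Of the 15 measured junction and keratin genes 1 had an unadjusted p under 0.05.

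**Figure D3:**
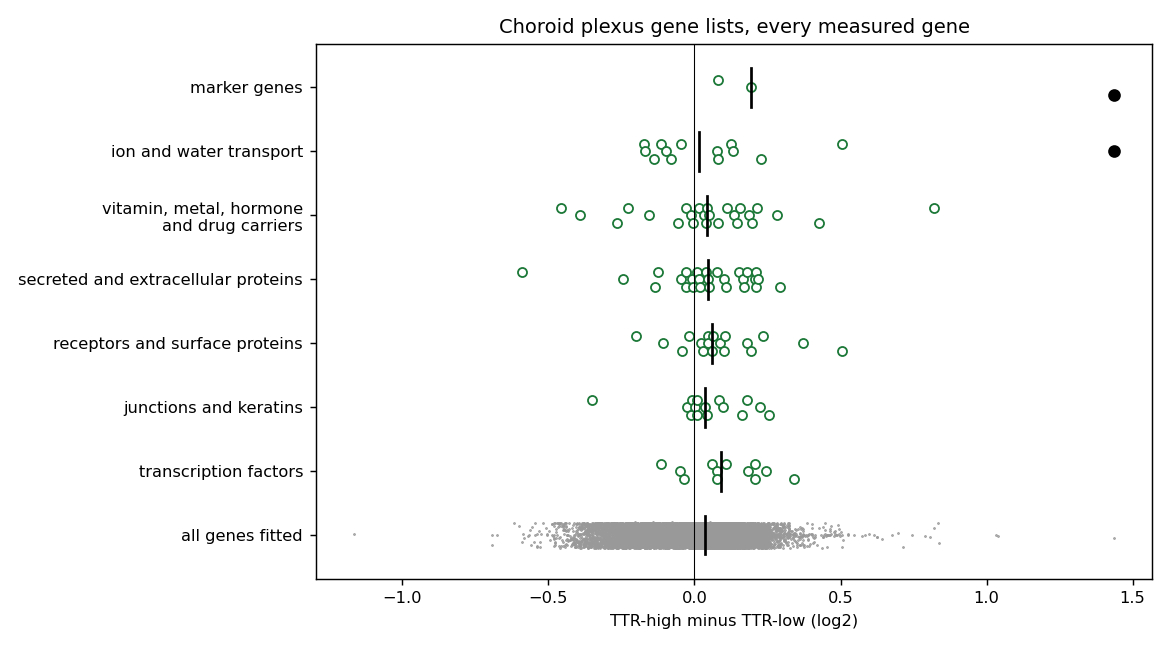
Difference between TTR-high and TTR-low arrays in log2 (horizontal axis) for every measured gene of 7 choroid plexus lists and for all 13754 genes. Each circle is a gene, the filled circle is KCNJ13 (adjusted p = 0.000186, limma), which 2 lists hold, and short black lines are medians. List medians lie between 0.02 and 0.19 log2, close to the median of all genes at 0.04 log2 except for the 3 markers.

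The 18 listed genes with a small unadjusted p in the higher direction were positive in HR and in LR arrays alike, 18 of 18, which their choice favours. For 13 of the 18 the mean of the arrays between lay between the means of both classes. It did so for 30 of all 111 listed genes and 2388 of the 13754 genes. Of the 25 genes of any kind with the smallest p in that direction it did so for 21. The 18 and the 25 were picked by a small p, which sets their class means apart and favours this too. Over all 111 listed genes 27.0% had a positive difference in both HR and LR arrays, against 19.4% of all genes. The median difference of the listed genes was 0.20 log2 within HR and -0.02 log2 within LR arrays, beside 0.12 and -0.03 log2 for all genes.

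Outside the lists, the gene with the smallest p was MIR296, as the annotation names a probe set that carries the name of the cow microRNA. It had 6.39, 6.66 and 6.96 log2 in TTR-high arrays, against 5.59, 6.27 and 6.55 log2 in TTR-low arrays, and 8 of 9 TTR-high arrays stood above every TTR-low array. The MIR296 difference of 0.58 ± 0.10 log2 missed the threshold (limma adjusted p = 0.0516), and 2 other MIR296 probe sets differed by 0.01 and -0.26 log2. The mature microRNA was thus not shown to differ. IBSP, a sialoprotein of bone matrix, differed by 0.64 ± 0.13 log2 (limma adjusted p = 0.303), while its second probe set differed by 0.02 log2. PCP4, a calmodulin regulator of thalamic, striatal and some hippocampal neurons, had 8.87, 9.25 and 9.48 log2 in TTR-high arrays, against 8.51, 8.67 and 9.06 log2 in TTR-low arrays. The PCP4 difference was 0.50 ± 0.11 log2 (limma adjusted p = 0.394). The remaining genes that filled the upper list, none of them called, averaged at most 6.27 log2 in TTR-high arrays. Among them OPTC, an extracellular proteoglycan of the eye, differed by 0.32 ± 0.07 log2, ATP6V1G3, a proton pump subunit, by 0.38 ± 0.09 log2, GIP, a gut hormone, by 0.34 ± 0.09 log2, TNNI1, a troponin, by 0.49 ± 0.13 log2 (0.08 log2 in a second probe set) and MIR10A by 0.45 ± 0.11 log2.

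In the lower direction limma called no gene, with 438 at an unadjusted p under 0.05. Those with the smallest p included Mir493 at -0.38 ± 0.08 log2, on a probe set that carries the name of the mouse microRNA. TMEM123 was also among them at -0.60 ± 0.16 log2 (0.05 log2 in a dimmer second probe set). CDH19, a cadherin of glial lineages, stood at -0.56 ± 0.15 log2, and SLC25A32, the mitochondrial folate carrier, at -0.39 ± 0.11 log2. CENPL, a centromere protein, stood at -0.39 ± 0.11 log2. Mir493, TMEM123, CDH19 and CENPL lay below the median probe set, with means of 3.37, 3.86, 4.24 and 3.83 log2 over the 20 arrays. NOL4 and ZNF35 each differed by -0.33 ± 0.09 log2. Non-overlap of the classes was rare. Every TTR-high array lay above every TTR-low array for 5 genes (0.0364% of those tested), namely KCNJ13, SLC13A4, MEFV, SLC43A2 and TMEM25, the last 3 named after their values were seen. MEFV, an inflammasome protein, differed by 0.24 ± 0.07 log2, SLC43A2, an amino acid transporter, by 0.27 ± 0.08 log2 and TMEM25 by 0.24 ± 0.06 log2. In the opposite direction 1 gene (0.00727%) did not overlap, ABCA12, a lipid transporter of skin, at -0.29 ± 0.07 log2 and a mean of 3.32 log2 in TTR-high and 3.60 log2 in TTR-low arrays.

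Markers of other cells that a hippocampus sample with attached plexus could hold were set beside these values. None of the genes in these lists was called in limma, and across the lists the unadjusted counts were between 0 and 2 in each direction. The meningeal and fibroblast list had 1 of 18 genes in each direction, with a summed level, as the mean over the list, of 6.98 to 7.21 log2 in TTR-high and 6.95 to 7.09 log2 in TTR-low arrays. COL6A3 and COL6A2, collagen chains of fibroblasts, differed by 0.16 ± 0.08 and 0.20 ± 0.10 log2, but by 0.05 and 0.02 log2 within LR arrays. Further COL6A3 probe sets differed by -0.53 to 0.32 log2, so the probe sets disagreed. PDGFRA, a growth factor receptor of fibroblasts and oligodendrocyte precursors, differed by -0.23 ± 0.11 log2. Ependyma and motile cilia had 0 of 15 in either direction, at 5.96 to 6.21 log2 in TTR-high and 5.93 to 6.22 log2 in TTR-low arrays. In that list TPPP3 differed by 0.20 ± 0.12 log2 and CCDC39, a ciliary axoneme protein, by -0.28 ± 0.19 log2. Endothelium had 0 of 15 higher and 1 lower, with 11 positive and 4 negative differences. The lower one was TEK, the angiopoietin receptor, at -0.33 ± 0.13 log2, and SLC2A1, the glucose transporter of the blood-brain barrier, differed by 0.19 ± 0.10 log2, though by -0.14 log2 within LR arrays. Pericytes and smooth muscle had 0 of 7 in either direction, with 5 positive and 2 negative differences and a median of 0.05 log2. ACTA2, the actin of smooth muscle, differed by 0.24 ± 0.13 log2, and the pericyte genes RGS5 and ABCC9 by -0.29 ± 0.20 and -0.31 ± 0.18 log2. Both were negative within HR arrays, at -0.84 and -0.89 log2, and positive within LR arrays, at 0.35 and 0.36 log2, and 4 further ABCC9 probe sets differed by -0.59 to 0.10 log2. Their part in the KCNJ13 result was not tested.

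Immune and blood markers had mostly positive differences, as had 58.8% of all genes, and none of them passed in limma. LYVE1, a hyaluronan receptor of border macrophages and lymphatic vessels, had 3.72, 4.29 and 4.72 log2 in TTR-high arrays, against 2.62, 3.48 and 4.15 log2 in TTR-low arrays, with a difference of 0.79 ± 0.20 log2 (limma adjusted p = 0.558). The LYVE1 difference was 0.56 log2 within HR and 1.05 log2 within LR arrays. A second LYVE1 probe set differed by -0.04 log2, so the probe sets disagreed. TMEM119 of microglia differed by 0.31 ± 0.11 log2, at 0.52 log2 within HR and 0.06 log2 within LR arrays. C1QC, a complement chain of microglia, differed by 0.26 ± 0.18 log2, at 0.57 log2 within HR and -0.11 log2 within LR arrays. The microglia and macrophage list had 9 positive and 3 negative differences, and its list mean ran from 7.60 to 8.17 log2 in TTR-high and from 7.34 to 7.93 log2 in TTR-low arrays. Of 11 blood cell genes 10 were positive, with a list mean of 5.51 to 5.95 log2 in TTR-high and 5.36 to 5.70 log2 in TTR-low arrays. S100A8, a granulocyte protein, differed by 0.34 ± 0.10 log2, at 0.57 log2 within HR and 0.08 log2 within LR arrays. With the blood marker mean as a covariate KCNJ13 was again the 1 gene called.

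Neural markers had differences of both signs. CALB1, the calcium buffer of dentate granule cells and interneurons, had 3.75, 5.13 and 5.97 log2 in TTR-high arrays, against 4.91, 5.69 and 6.06 log2 in TTR-low arrays, with a difference of -0.69 ± 0.22 log2 (limma adjusted p = 0.558). DSP, a desmosome protein that marks granule cells, differed by 0.23 ± 0.09 log2, and the median of the 10 granule cell genes was -0.01 log2. SYT1, a synaptic vesicle calcium sensor, differed by -0.16 ± 0.10 log2. SLC32A1, the vesicular GABA transporter, differed by 0.27 ± 0.11 log2, at 0.44 log2 within HR and 0.08 log2 within LR arrays. A second SLC32A1 probe set differed by 0.05 log2. GAD2, of the same interneuron list, differed by -0.28 ± 0.13 log2. Of the 9 measured interneuron genes 7 had a positive and 2 a negative difference, with a median of 0.115 log2. AQP4, the water channel of astrocytes, differed by -0.25 ± 0.13 log2, UGT8, a myelin lipid enzyme, by -0.35 ± 0.17 log2 and PTPRZ1, a phosphatase of oligodendrocyte precursors, by -0.35 ± 0.16 log2. The medians were -0.09 log2 for 11 neuronal, -0.04 log2 for 10 astrocyte and 0.01 log2 for 12 myelin genes. The 9 measured oligodendrocyte precursor genes had a median of 0.05 log2, with 5 positive and 4 negative differences. Among the positive ones were OLIG1 at 0.23 ± 0.14 log2 and GPR17 at 0.17 ± 0.09 log2.

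Other pathways gave few small p values. The immediate early genes are switched on by neurons within minutes of activity or handling. They were positive for 11 of 11, against 58.8% of all genes, with a median of 0.19 log2. Of these 11 genes 1 had an unadjusted p under 0.05, EGR4 at 0.24 ± 0.11 log2, and none was called. The EGR4 difference was 0.47 log2 within HR and -0.02 log2 within LR arrays. DUSP1 differed by 0.20 ± 0.10 log2, at 0.32 log2 within HR and 0.07 log2 within LR arrays. Of 19 BMP, TGF-beta and WNT genes 3 were higher and 1 lower at an unadjusted p under 0.05. RSPO3, an R-spondin that strengthens WNT signals, had 8.72, 9.18 and 9.63 log2 in TTR-high arrays, against 8.91, 9.47 and 10.11 log2 in TTR-low arrays, a difference of -0.39 ± 0.15 log2. The RSPO3 difference was -0.71 log2 within HR and -0.02 log2 within LR arrays. RSPO1 differed by 0.24 ± 0.09 log2 and SFRP1, a secreted WNT inhibitor, by 0.29 ± 0.12 log2. Oxidative phosphorylation, which choroid plexus runs at a high rate, had 1 of 16 genes with a small unadjusted p, NDUFA4 at 0.25 ± 0.08 log2 on a dim probe set. A second dim NDUFA4 probe set differed by -0.05 log2, so the probe sets disagreed. Lysosome and proton pump genes had 0 of 15 higher and 1 lower, ATP6V1C1 at -0.31 ± 0.14 log2. The ATP6V1C1 difference was -0.54 log2 within HR and -0.04 log2 within LR arrays. Complement and coagulation had 0 of 17 in either direction.

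Whether the difference between TTR-high and TTR-low arrays depended on the coping pattern was tested with an interaction term. It passed for 1182 genes, 8.59% of those tested, with 261 positive and 921 negative terms (limma, adjusted over all genes). The choroid plexus lists held 8 of these genes, 3 positive and 5 negative, and KCNJ13 was not among them. The count rested on few arrays. Without LR replicate 9 it was 3, without HR replicate 5 it was 157, and with the first principal component as a covariate 0 genes passed in limma and 1120 had an unadjusted p under 0.05. That component averaged 10.65 in HR and -11.59 in LR arrays of the TTR-high class, and -40.59 in HR and 0.73 in LR arrays of the TTR-low class. The 3 TTR-low HR arrays all lay at -28.12 or below, as did LR replicate 9 of the TTR-high class at -30.3. Background control probe sets rich in G and C averaged 7.41 in HR and 7.43 log2 in LR arrays of the TTR-high class, and 7.18 in HR and 7.45 log2 in LR arrays of the TTR-low class. The coping pattern and these array measures cannot be told apart with 3 TTR-low HR arrays.

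**Figure D4:**
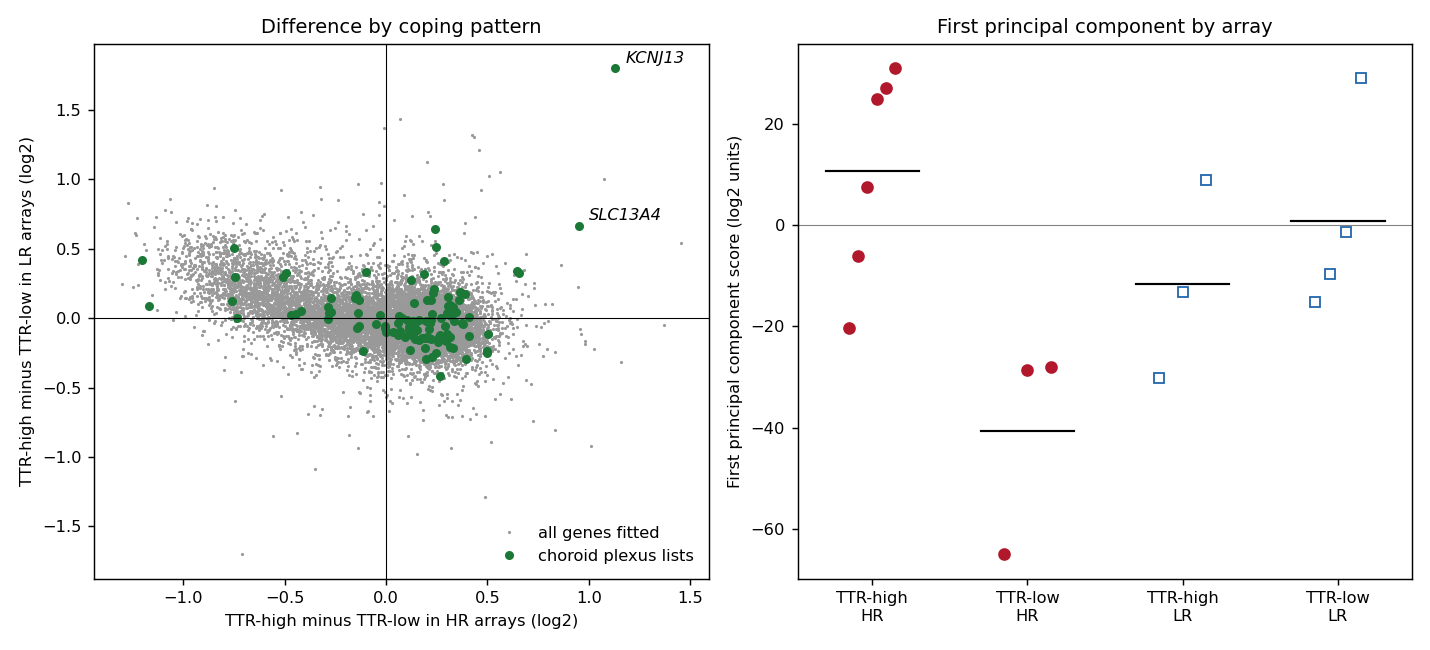
Left, difference between TTR-high and TTR-low arrays in log2 within HR arrays (horizontal axis) and within LR arrays (vertical axis) for each gene, choroid plexus genes in green. Right, first principal component score of each array in the 4 combinations, lines for means. KCNJ13 (1.13 in HR, 1.80 in LR) and SLC13A4 (0.95 in HR, 0.67 in LR) lie far out in the positive quadrant, and the 3 TTR-low HR arrays lie at -28.12 or below, with a mean of -40.59, where LR replicate 9 of the TTR-high class, at -30.3, lies too.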

How the data were processed

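The values were deposited as log2 signals. The authors scanned the arrays with GCOS 1.1.1 per the processing notes, and per their methods normalised them by RMA, which forces every array onto the same distribution and shrinks differences of dim probe sets, so that a global change in RNA content would not show. Their detection calls were not used here. The table held 47845 probe sets in 20 arrays, with 0 sample columns unused. After 123 controls were left out, 26426 probe sets had 1 symbol in the platform annotation, which can be old, 0 had several and 21296 had none. The probe set with the highest mean stood for each of 13755 genes, and TTR was left out of the fit. Arrays carry no read depth, and their number limits the precision. No 2 arrays held the same values, since the smallest SD of the differences between 2 arrays was 0.303.

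TTR-high and TTR-low arrays were compared over 13754 genes with limma 3.58.1 in R 4.3.3 (two-sided moderated test, coping pattern as covariate, Benjamini-Hochberg at 0.05). The same model with an interaction term compared HR with LR, and differences of array measures were tested by exact permutation or, for TTR, 100000 permutations (scipy 1.17.1). The procedure was tested on simulated data first. Lists held 418 symbols, of which 352 were found, and were counted, not tested as sets. Named genes were the called genes, filled to 12 per direction by unadjusted p, the markers, up to 4 genes with the smallest p and the brightest per list, and up to 5 interaction genes per direction. Not every such gene is described, and others are said to have been named after their values were seen or picked outside this rule. The arrays, markers and lists were chosen with earlier results of these data known. Alternatives changed the filter, probe sets, variance model, weights, covariates, classes, test and arrays. Positions are from the RefSeq annotation of Sscrofa 11.1.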

Additional observations from a re-analysis of the deposited data

Results flagged for a closer look

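The difference between TTR-high and TTR-low arrays itself differed between HR and LR for 1182 genes (limma interaction, adjusted over 13754 genes). By smallest p the positive terms were TBX20, a heart transcription factor, at 0.92, MFSD3 at 0.84, LOC100157384 at 1.47, CYP3A29, a drug-metabolising enzyme, at 1.08 and TPP1, a lysosomal peptidase, at 0.72 log2. The negative terms were TMTC3 at -1.08, IL33, an alarmin of astrocytes and oligodendrocytes, at -1.60, TBC1D23 at -1.35, TET2, which oxidises methylated cytosine, at -1.53 and KBTBD3 at -1.87 log2. Each had an adjusted p of 0.013 in limma. IL33 averaged 5.77 in TTR-high and 6.77 log2 in TTR-low HR arrays, and 6.67 in TTR-high and 6.07 log2 in TTR-low LR arrays. The interaction count was 0 with the first principal component as a covariate and 3 without LR replicate 9, namely IL33, TBX20 and TMTC3.

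Single arrays stood apart from their class for 10 of 146 combinations of a gene and a class, where chance marks about 1 in 20. In TTR-high arrays IGF2 was 11.08 in HR replicate 8 (others 11.27 to 11.46) and ACTA2 9.04 log2 in HR replicate 1 (others 8.09 to 8.54). In TTR-low HR replicate 5, BMP6 was 5.86 (others 6.22 to 6.44), SLC32A1 7.03 (others 7.54 to 7.89) and AQP4 12.63 log2 (others 11.84 to 12.14), and in TTR-low HR replicate 2, TNNI1 was 5.23 log2 (others 5.69 to 6.03). In TTR-low LR arrays KL was 6.50 in replicate 5 (others 7.05 to 7.36), AQP1 3.99 in replicate 7 (others 4.65 to 5.15), and in replicate 3 MIR10A was 1.85 (others 1.54 to 1.64) and ZNF35 7.59 log2 (others 7.87 to 8.02).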

How the results depend on the processing

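KCNJ13 kept a positive difference under every alternative run, from 1.13 to 1.80 log2 between classes and 0.34 log2 per log2 unit of TTR over all 20 arrays, and was called under each that tested it except the exact Wilcoxon test. Genes called numbered 3 with a filter at the median probe set level, with a variance trend and robust fit and with the GC-rich background as covariate, 2 with array weights, without the coping covariate and with TTR as a number, and 0 under Wilcoxon (800 at an unadjusted p under 0.05) and with classes taken from KCNJ13 (263 unadjusted, KCNJ13 itself left out, 9 of 9 and 6 of 7 arrays shared with the TTR classes). The genes added were SLC13A4, MIR296 or both. Choroid plexus genes called numbered 2 with the filter, the trend and robust fit, the GC-rich background, no covariate and TTR as a number, and 0 under Wilcoxon and KCNJ13 classes. HR arrays alone gave 1732 genes (12.6%) and 15 choroid plexus genes (13.5% of 111), shares near each other, and LR arrays alone 1. Leaving out each array in turn gave 1 to 2 genes and 1 to 2 choroid plexus genes, the added gene being SLC13A4 without HR replicate 10, LR replicate 4 or LR replicate 5, and MIR296 without HR replicate 5.

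The interaction count was 0 with the first principal component, 392 with the GC-rich background, and 3 to 1860 with 1 array left out, at 3 without LR replicate 9, 157 without HR replicate 5, 479 without LR replicate 8, 521 without LR replicate 3, 776 without HR replicate 10 and 1860 without HR replicate 8. The covariates and single arrays tried on the interaction, the first principal component as a covariate and the array measures with 1 array left out were chosen after seeing the data. The array median difference ran from 0.012 to 0.0238 log2 and the first principal component difference from 12.2 to 27.9 with 1 array left out, at 0.0238 log2 (exact permutation p = 0.0432) and 27.9 (p = 0.0364) without LR replicate 3 and 0.0235 log2 (p = 0.0488) without LR replicate 10. The TTR difference between HR and LR ran from 0.24 to 0.82 log2 and passed in none.

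Of 72 genes whose class difference is described, 57 never changed direction, with the interaction genes and GAD2, OLIG1, GPR17 and EGR4 not counted. FOLR1 was -0.033 with KCNJ13 classes, -0.037 with the GC-rich background, -0.054 with blood markers, -0.09 with the first principal component and -0.22 log2 in LR arrays alone, and lay at -0.004 log2 without HR replicate 5. RGS5 was 0.005 with KCNJ13 classes, 0.05 with the first principal component and 0.35 log2 in LR arrays alone. CCDC39 was 0.009 with KCNJ13 classes, 0.048 with the first principal component and 0.20 log2 in LR arrays alone. In LR arrays alone TEK was 0.023, ABCC9 0.36, TPPP3 -0.011, SLC2A1 -0.14, C1QC -0.11, SYT1 0.11, AQP4 0.11, PTPRZ1 0.11, SFRP1 -0.059, SLCO1C1 0.004, EFEMP1 0.085 and TJP1 0.13 log2. The cause was not tested. Dim genes near the lower end of the scale, such as MIR10A, are limited by signal over background.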
